A study of Schmidtea mediterranea with 58 samples.

Results

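Trimethylation of lysine 4 on histone H3 (H3K4me3) was followed at 271 regions of the planarian *Schmidtea mediterranea* genome where the mark was lower after *mll*(RNAi) in whole worms and where no listed region shifted clearly after *set1*(RNAi). The regions were chosen by their values, with no test. Among the 5169 regions listed for *mll*(RNAi) in whole worms, a region was kept if the mean of the *mll*(RNAi) libraries lay below that of their *unc*(RNAi) controls by 0.2 or more on the log2 scale and both *mll* values lay below both control values. This first step retained 818 regions, or 15.8% of those listed. A region was then dropped if it overlapped, by 1 base or more, any region of the *set1* whole-worm table whose 2 *set1* values both lay below or both lay above its 2 control values. That condition was wide, since it held for 6711 of 8633 listed *set1* regions (77.7%). The 271 regions that remained were 1.68% of the 16158 regions listed in all 7 tables.

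H3K4me3 marks nucleosomes around the starts of transcribed genes, and it is written by enzymes of the Set1 and Trithorax/MLL families. In animals, Set1 enzymes are known for placing much of the mark at active promoters in general, and MLL enzymes for placing it at more restricted sets of genes. Planarians regenerate from dividing adult stem cells, the neoblasts. The sorted fraction named X1 holds dividing cells that irradiation removes, and the Xins fraction holds differentiated cells that resist it.

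The groups were *mll*(RNAi) worms fed double-stranded RNA for 9 days, *set1*(RNAi) worms fed for 6 days, and *unc*(RNAi) worms as the control of each, whose days of feeding were not given. Each RNAi group and its own control were profiled as whole worms, X1 cells and Xins cells, and untreated X1 cells were compared with untreated Xins cells. Every table held 2 libraries against 2. The gene, the days of feeding and the separate libraries cannot be told apart as sources of a difference between *mll* and *set1*. Nothing in the labels said that the libraries of a group came from separate cultures of worms, so the p-values below measure the spread between these libraries, which may be technical. The tables pair regions with gene identifiers but not with gene names, so neither the sorted cell types nor the knockdown could be checked against named genes, and no function is given for any gene. In whole worms, fewer cells of a type and less mark per cell cannot be told apart.

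The values are normalized read counts, that is, reads in a region scaled between libraries by the authors. The worth of 1 read could be recovered for 251 to 253 of the 271 regions in the whole-worm libraries. There the median region held 385 and 373 reads in the *mll*(RNAi) libraries, against 792 and 623 reads in the *unc*(RNAi) libraries. At the regions listed in X1 cells the medians were 49.0 and 32.0 reads after *mll*(RNAi), against 154 and 118 reads in the control. The sorted-cell values therefore carried a larger counting error than the whole-worm values.

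In whole worms, the median log2 change of the 271 regions was -0.38 after *mll*(RNAi), with quartiles of -0.56 and -0.27 and a range of -1.93 to -0.20. These changes are those that chose the regions and are given as a description. Most falls were modest. At 12 regions the log2 change was -1 or less, at 87 it was -0.5 or less, at 98 it lay between -0.5 and -0.3, and at 86 it was above -0.3. In the first-listed and second-listed *mll*(RNAi) libraries the regions ranged from 87.8 to 1122 (median 443) and from 88.8 to 1074 (median 439). In the 2 *unc*(RNAi) libraries they ranged from 231 to 1507 (median 587) and from 242 to 1420 (median 586). The 2 libraries of a group lay close together, with a median absolute difference of 0.08 between the *mll*(RNAi) libraries and 0.05 between the *unc*(RNAi) libraries on the log2 scale. The gap between the higher *mll* value and the lower control value had a median of 0.30 on the same scale (0.07 to 1.90). Scaling each library to the same median over all listed regions, an alternative chosen after seeing the data, removed a shift of -0.10 on the log2 scale. The median of the 271 regions was then -0.28, and 185 of the 271 still met the rule.

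**Figure D1:**
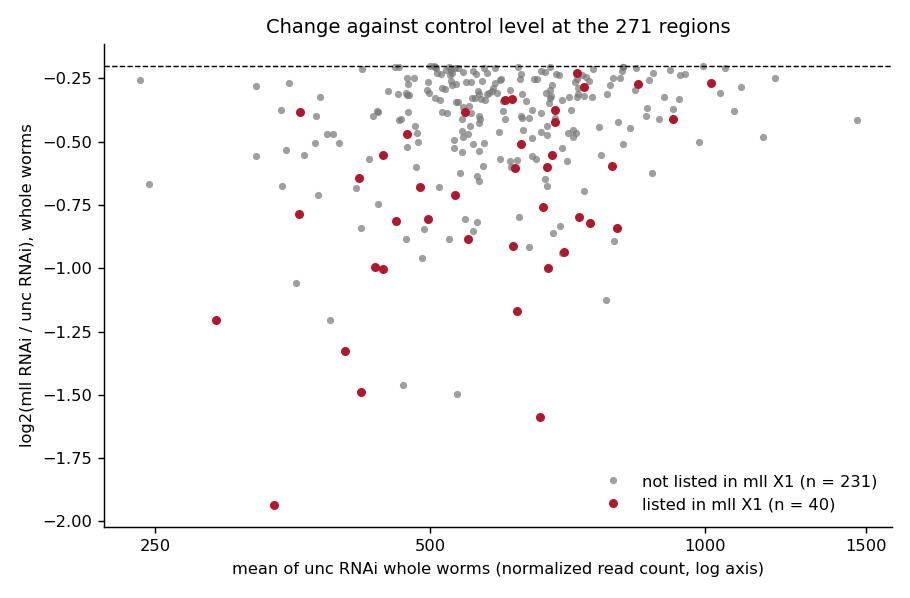
Each point is 1 of the 271 regions, with the mean normalized read count of the *unc*(RNAi) whole-worm libraries on the x axis (log scale) and log2 of the *mll*(RNAi) over the *unc*(RNAi) mean on the y axis; the dashed line is the limit of -0.2 that chose the regions. The 40 regions also listed for *mll*(RNAi) in X1 cells (red) had a median change of -0.70, against -0.34 for the 231 others (grey), and 7 of the 12 regions at -1 or less were red.

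The largest fall was at scaffold v31.021203, positions 501 to 1700, over the start of SMED30025729. It held 87.8 and 88.8 normalized reads in *mll*(RNAi) worms, against 342.7 and 332.2 in *unc*(RNAi) worms, a log2 change of -1.93. Enrichment over input, the ratio of immunoprecipitated to input chromatin, was 1.67 after *mll*(RNAi), against 6.95 in the control. The *mll*(RNAi) libraries were thus close to the input level at this gene start, while the control libraries were not.

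Next came v31.001173, positions 11301 to 12900, over the start of SMED30018035, with 200.4 and 238.0 in *mll*(RNAi) worms, against 653.0 and 665.9 in *unc*(RNAi) worms (log2 change -1.59). At v31.001122, positions 50001 to 51200 (SMED30002977), the values were 192.2 and 186.8 after *mll*(RNAi), against 543.4 and 525.8 in the control (-1.50). At v31.010417, positions 3201 to 4400 (SMED30027304), they were 138.8 and 160.9 after *mll*(RNAi), against 450.0 and 390.6 in the control (-1.49). In all 3 regions the *mll*(RNAi) libraries lay far below the lower control library, and enrichment over input was 1.85 to 2.45 after *mll*(RNAi), against 6.43 to 7.30 in the control.

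The fifth region, v31.002898, positions 43501 to 44600, was the only one of these 8 that did not reach a gene start. It lay 838 bases from that of SMED30023936 and held 183.5 and 156.0 in *mll*(RNAi) worms, against 468.0 and 466.1 in *unc*(RNAi) worms (-1.46). The sixth was v31.025446, positions 4101 to 5700 (SMED30023688), with 155.9 and 165.8 after *mll*(RNAi), against 414.0 and 393.2 in the control (-1.33). The seventh and eighth each covered a pair of gene starts. At v31.006010, positions 14701 to 15800 (SMED30017232 and SMED30024797), the values were 165.7 and 171.5 after *mll*(RNAi), against 388.1 and 389.4 in the control (-1.21). At v31.046932, positions 2101 to 3200 (SMED30008939 and SMED30010841), they were 134.4 and 118.6 after *mll*(RNAi), against 314.1 and 269.3 in the control (-1.20). The groups stood apart at all 8 regions, which the rule required, and the control libraries differed most from each other at the fourth and the eighth.

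**Figure D2:**
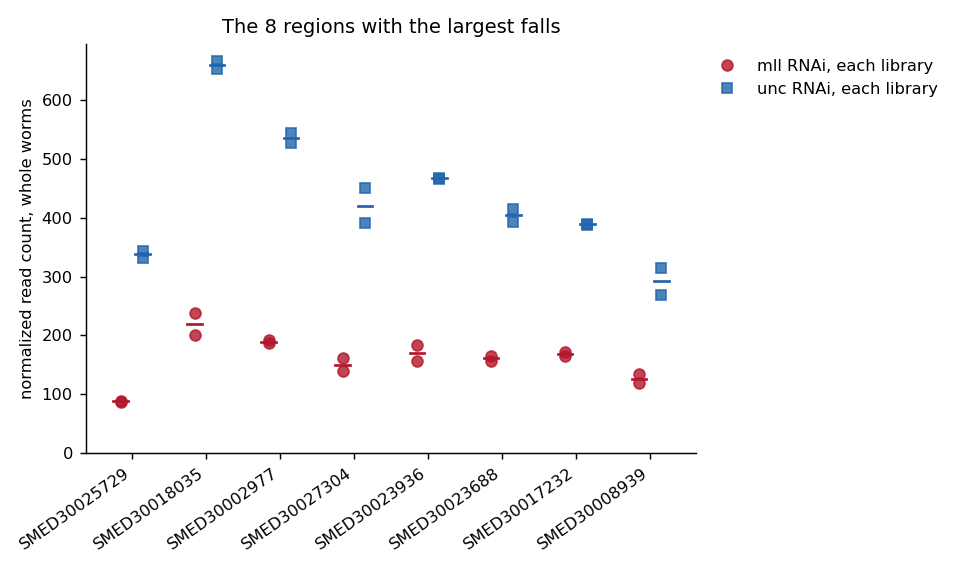
Normalized read counts of each whole-worm library at the 8 regions with the largest falls, named by their first gene identifier, with *mll*(RNAi) as red circles on the left and *unc*(RNAi) as blue squares on the right of each pair; lines are the means of 2 libraries. No *mll*(RNAi) value exceeded 238.0, and no *unc*(RNAi) value was under 269.3.

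Among the 5169 listed regions, the 20 with the lowest log2 change held 9 of the 271 regions and 11 regions where the mark was higher after *set1*(RNAi). The lowest 100 held 42 and 40 of these. The 271 regions had a median *unc*(RNAi) level of 580, against 802 over all listed regions. Median enrichment over input was 5.53 after *mll*(RNAi) and 7.74 in the control at the 271 regions, against 10.4 and 11.1 over all listed regions. Enrichment was lower after *mll*(RNAi) at 265 of the 271 regions (97.8%), against 69.6% of all listed regions. This ratio shares its libraries with the rule, so that its fall adds no independent measure. The regions were also somewhat longer, with a median of 1500 bases (1000 to 2500), against 1300 bases over all listed regions. The other regions that passed the first step shared these traits. They were lower after both knockdowns, higher after *set1*(RNAi), or had mixed *set1* regions (some lower, some higher). In that order, median lengths were 1500, 1500 and 1600 bases, and median control levels 686, 632 and 777. Median control enrichment was 8.33, 8.05 and 8.52, and enrichment fell at 97.4%, 97.9% and 98.3%. The traits are thus not particular to the 271 regions, and no difference was tested.

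Across the 271 regions, the log2 change went with the control enrichment (Spearman's rho = 0.46): regions with less enrichment in *unc*(RNAi) worms tended to have the larger falls. The rank correlation of the change was 0.19 with the control level and -0.12 with length, while length and control level were correlated with each other (0.66). These values describe 271 regions measured in the same 4 libraries. The highest control level belonged to v31.030749, positions 401 to 2400 (SMED30020524 and SMED30020670), with 1122 and 1074 in *mll*(RNAi) worms, against 1507 and 1420 in *unc*(RNAi) worms (log2 change -0.41). It was followed by v31.001809, positions 29501 to 31700 (SMED30006811), with 971.2 and 1032 after *mll*(RNAi), against 1158 and 1225 in the control (-0.25). The third was v31.002905, positions 11301 to 13000 (SMED30010543 and SMED30001794), with 863.6 and 790.9 after *mll*(RNAi), against 1184 and 1126 in the control (-0.48). None of the 3 regions of highest level was among those of the largest falls, and the first 2 were only 4.29 and 2.14 times enriched over input in the control. The longest region spanned 2500 bases at v31.012364, positions 14901 to 17400 (SMED30013145), with 840.0 and 811.7 after *mll*(RNAi), against 1075 and 1073 in the control (-0.38). Of the regions of the shortest length, at v31.000013, positions 195301 to 196300 (SMED30009894 and SMED30011372), the values were 427.3 and 416.0 after *mll*(RNAi), against 507.7 and 523.2 in the control (-0.29).

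The limit of -0.2 cut through a continuous range. Just inside it lay v31.000000, positions 564101 to 566000, with 887.2 and 842.8 in *mll*(RNAi) worms, against 982.9 and 1006 in *unc*(RNAi) worms (-0.20). The next regions inside were v31.027583, positions 2001 to 3100, and v31.003931, positions 30701 to 32000, at -0.201 and -0.202. Just outside lay v31.010879, positions 1801 to 3600, with 740.5 and 756.6 after *mll*(RNAi), against 858.8 and 859.6 in the control (-0.199). It was followed by v31.000030, positions 2901 to 3900, at -0.195, and v31.000311, positions 140101 to 141100, also at -0.195. Regions on either side of the limit hardly differed in size of change.

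Most of the 271 regions lay at gene starts. Within 200 bases of an annotated start were 248 of them (91.5%, exact Clopper-Pearson 95% interval 87.5 to 94.5%, which covers the counting of regions only), against 84.0% of all listed regions, and 242 covered the start itself. Among the other regions lower after *mll*(RNAi), the share within 200 bases was 86.2% for those lower after both knockdowns. It was 88.0% for those higher after *set1*(RNAi) and 88.2% for those with mixed *set1* regions. Of the 271 regions, another 12 lay 331 to 967 bases from the nearest start, and 11 lay 2016 to 46070 bases away. At 27 regions 2 or more starts lay within 200 bases, and at 3 of these there were 3 starts. The tables paired the 271 regions with 372 gene identifiers on 266 scaffolds, so nearly all regions were alone on their scaffold.

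Among the 11 regions far from a start, the largest falls were at v31.000581, positions 118001 to 119600, 45162 bases from the nearest start, and v31.000704, positions 62201 to 63700, 46070 bases away. The first held 422.6 and 462.5 in *mll*(RNAi) worms, against 657.5 and 683.6 in *unc*(RNAi) worms (-0.60). The second held 423.8 and 456.6 after *mll*(RNAi), against 668.1 and 636.2 in the control (-0.57). Both exceeded the median change of the 11 regions, which was -0.32, and the first was also listed in X1 cells. The groups did not overlap at any of the 11, which the rule required.

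No scaffold held more than 2 of the regions, and 5 scaffolds held 2. On v31.002472 the regions at positions 6301 to 7700 (SMED30004682) and 58001 to 59400 (SMED30013803) had nearly the same change. The first held 390.8 and 361.9 after *mll*(RNAi), against 537.7 and 523.1 in the control (-0.50), and the second 390.8 and 391.7, against 549.0 and 566.0 (-0.51). On v31.001028 the changes differed, at -0.52 for the region of SMED30008192 and -0.24 for that of SMED30022688. Some regions shared an identifier. SMED30020670, with or without a suffix, was listed at 3 regions on separate scaffolds (log2 change -0.57, -0.44 and -0.41), of which 2 also shared SMED30003303, and SMED30033033 was listed at 2 (-0.31 and -0.26). How the authors' mapping divided reads between such near copies was not given, so these values are uncertain.

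In the *set1* whole-worm table, 160 of the 271 regions (59.0%) overlapped no listed region, and their level after *set1*(RNAi) was not analysed here. The other 111 overlapped 135 listed regions whose groups overlapped, as the rule required. At these 135 the log2 change ranged from -0.12 to 0.10 with a median of 0.02, and the *set1*(RNAi) mean was lower than its control at 49 and higher at 86. The reads were not few, with medians of 854 and 624 per region in the *set1*(RNAi) libraries, against 1059 and 593 in the *unc*(RNAi) libraries. A *set1* region with separated values lay within 1000 bases of 3 of the 271 regions, after the rule had removed every region that overlapped one. No share over all listed regions was computed beside this count or the 59.0%, so neither is read as a trait of the 271 regions.

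In X1 cells after *mll*(RNAi), 40 of the 271 regions overlapped a listed region, and H3K4me3 was lower at all 40. These libraries took no part in the choice of the regions and were tested with limma on log2(normalized count + 1), with adjustment over the 306 regions of the table. All 40 were called at an adjusted p under 0.05, the highest being 0.0033, with log2 changes of -2.49 to -0.74 and a median of -1.14. The background in this table was 92.2% called lower and 92.5% with both *mll* values below both control values, since the authors listed regions that differed in the same libraries, and the median of all regions listed as lower was -1.13. The count of 40 lowered regions among 40 is therefore near that of the table as a whole. For the same reason the p-values and the sizes of change tend to be too favourable. They describe regions already listed as differing, here and in the other sorted-cell comparisons below. At the 40 regions the *mll*(RNAi) libraries ranged from 13.2 to 85.0 (median 45.0) and from 15.5 to 86.6 (median 45.4), against 65.5 to 187.5 (median 101) and 57.4 to 187.1 (median 99.8) in the *unc*(RNAi) libraries. Median enrichment over input was 2.65 after *mll*(RNAi), against 7.30 in the control, and it was lower at each of the 40. This ratio uses the same libraries as the listing, so its fall adds no independent measure. Of these regions 39 lay within 200 bases of a gene start, against 90.5% of all regions listed in X1 cells.

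The smallest adjusted p-values belonged to 2 regions. At v31.000662, positions 109401 to 111400 (SMED30033662), X1 cells held 64.0 and 57.4 normalized reads after *mll*(RNAi), against 187.5 and 187.1 in the control, a log2 change of -1.61 ± 0.11 (limma estimate ± SE, 2 libraries each, adjusted p = 1.5e-06). At v31.044442, positions 1 to 2100 (SMED30000566), X1 cells held 25.2 and 20.3 after *mll*(RNAi), against 134.5 and 128.8 in the control, a log2 change of -2.49 ± 0.16 (adjusted p = 1.5e-06). The whole-worm changes were much smaller at both, -0.82 and -0.60. The second had the largest fall of the 40 in X1 cells, while in whole worms 24 of the 40 had a larger one.

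SMED30018035, which had the second largest fall in whole worms, held 55.3 and 49.5 in X1 cells after *mll*(RNAi), against 144.5 and 134.9 in the control (-1.40 ± 0.12, limma adjusted p = 6.9e-06). SMED30023688 held 16.9 and 15.5 after *mll*(RNAi), against 85.3 and 76.8 in the control (-2.25 ± 0.20, adjusted p = 8.7e-06). The X1 groups did not overlap at either gene start. SMED30009457, at v31.001109, positions 110001 to 111500, held 24.4 and 31.0 after *mll*(RNAi), against 105.8 and 92.6 in the control (-1.81 ± 0.17, adjusted p = 9.2e-06). SMED30005961, at v31.007401, positions 12201 to 14100, held 42.7 and 45.4 after *mll*(RNAi), against 112.4 and 115.7 in the control (-1.35 ± 0.13, adjusted p = 9.2e-06). SMED30004555, at v31.000656, positions 63701 to 65000, held 14.2 and 18.6 after *mll*(RNAi), against 90.0 and 75.2 in the control (-2.27 ± 0.22, adjusted p = 9.2e-06). This last fall rested on 14 and 12 reads in the *mll*(RNAi) libraries, against 131 and 82 in the control. At v31.000493, positions 8401 to 10000 (SMED30006653 and SMED30011270), the values were 39.6 and 43.5 after *mll*(RNAi), against 113.4 and 114.6 in the control (-1.44 ± 0.13, adjusted p = 9.2e-06). In none of these regions did the higher *mll*(RNAi) library come near the lower control library.

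Scaling each X1 library to the same median over the listed regions removed a shift of -1.13 on the log2 scale, and 9 of the 40 regions were then called lower and 4 higher, with a median of -0.03. Over the whole table that scaling gave 56 lower and 50 higher calls, against 282 and 20 for the values as deposited, so the median fall at the 40 regions was about that of the table. Of the 8 regions just named, all remained lower and 5 were still called, at log2 changes of -0.49 (SMED30033662), -0.70 (SMED30009457), -1.16 (SMED30023688), -1.18 (SMED30004555) and -1.39 (SMED30000566). The calls were lost at SMED30018035 (-0.28), SMED30005961 (-0.24) and SMED30006653 with SMED30011270 (-0.32).

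Whether a region was listed in X1 cells went with its fall in whole worms. Of the 87 regions at -0.5 or less in whole worms, 28 were listed in X1 cells (32.2%), against 12 of the 184 others (6.52%). The median *unc*(RNAi) level in whole worms was 617 for the 40 regions, against 574 for the 231 not listed. Of the 8 largest falls, 5 were listed in X1 cells, and SMED30002977, SMED30023936 and the pair SMED30017232 and SMED30024797 were not. The level in X1 cells of the regions absent from that table was not analysed here.

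At 35 of the 40 regions the log2 ratio of means was lower in X1 cells than in whole worms, with medians of -1.16 in X1 cells and -0.70 in whole worms. The X1 table held only regions that the authors listed as differing in those libraries, so the medians are not an estimate of a difference between materials, and the difference was not tested. Across the 40 regions the changes in X1 cells and whole worms had a Spearman's rho of 0.49 and a Pearson's r of 0.43, as a description over regions that share libraries. The exceptions included SMED30027304, at -1.49 in whole worms. In X1 cells it held 51.1 and 61.1 after *mll*(RNAi), against 101.1 and 98.7 in the control (limma log2 change -0.83 ± 0.14). That fall was smaller than the shift of -1.13 that median scaling removed in X1 cells. This gene start was chosen for mention after its values were seen.

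**Figure D3:**
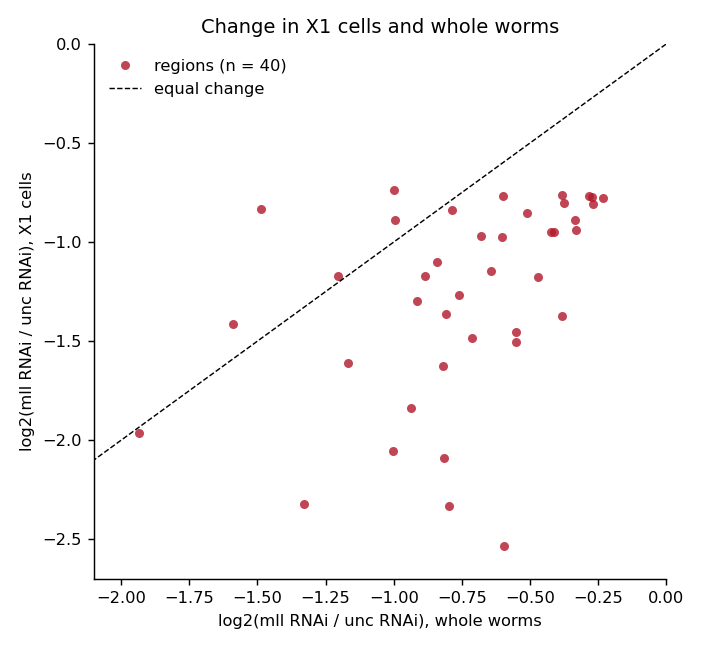
Each point is 1 of the 40 regions listed in both materials, with log2 of *mll*(RNAi) over *unc*(RNAi) in whole worms on the x axis and in X1 cells on the y axis, as ratios of the means of 2 libraries; the dashed line marks equal changes. Of the points 35 lie below the line, and none lies above -0.7 on the y axis.

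Set beside the other regions of the whole-worm table, 14.8% of the 271 regions were listed for *mll*(RNAi) in X1 cells. The share was 11.3% of the 195 regions lower after both knockdowns, 22.7% of the 233 that were lower after *mll*(RNAi) and higher after *set1*(RNAi), and 16.0% of the 119 with mixed *set1* regions. It was 1.33% of the 4351 other listed regions. The 271 regions lay within the range of the classes that fell after *mll*(RNAi), and above the remainder of the table. For *set1*(RNAi) in X1 cells the share was 3.69% of the 271 regions. It was 10.3% of those lower after both, 0.858% of those higher after *set1*(RNAi), 4.20% of those with mixed *set1* regions and 11.1% of the other listed regions. No test was made between these classes, whose regions are not replicates.

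**Figure D4:**
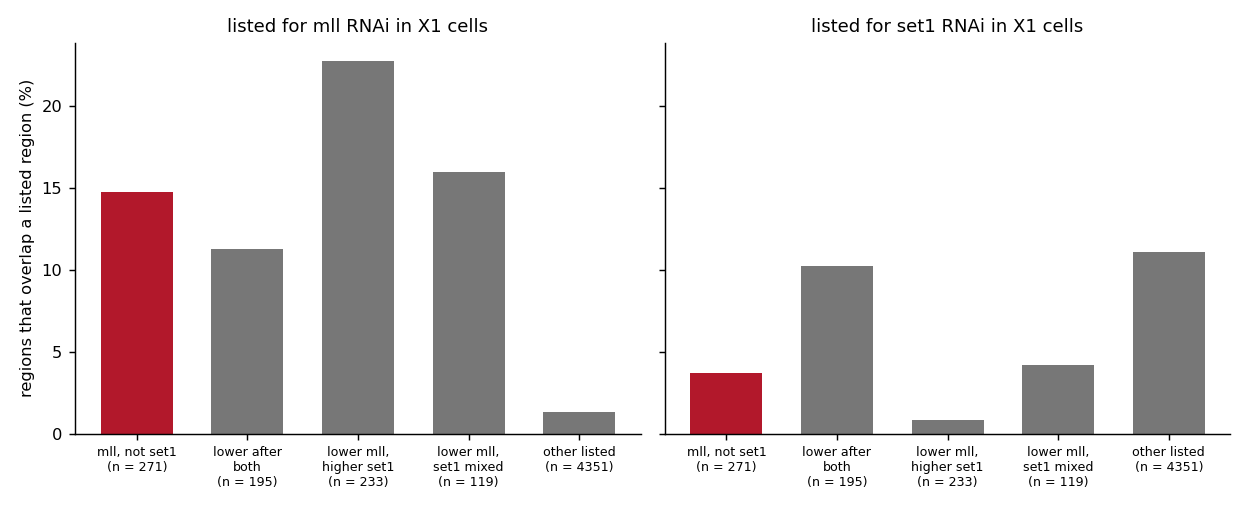
Bars give the percentage of whole-worm regions that overlap a region listed for *mll*(RNAi) in X1 cells (left panel) or for *set1*(RNAi) in X1 cells (right panel), for the 271 regions (red) and the other classes of the *mll* whole-worm table (grey), with the number of regions under each bar. The 271 regions stand at 14.8% on the left and 3.69% on the right, against 1.33% and 11.1% for the other listed regions.

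In Xins cells after *mll*(RNAi), 1 of the 271 regions overlapped a listed region, out of 12 regions in that table, all called lower (100.0%). It was v31.001988, positions 21201 to 22200, at the start of SMED30010028, with 27.1 and 37.4 normalized reads after *mll*(RNAi), against 63.4 and 55.9 in the control (log2 change -0.88 ± 0.22, limma adjusted p = 0.0039). In whole worms the region there held 623.7 and 633.4 after *mll*(RNAi), against 769.7 and 792.3 in the control (-0.31), and it was not listed in X1 cells. The depth of this table could not be recovered. Without the first-listed or the second-listed control library the adjusted p was 0.11 or 0.075. Under median scaling the log2 change was 0.15, that is, higher after *mll*(RNAi), with an adjusted p of 0.69.

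The 271 regions were chosen to overlap no *set1* region with separated values in whole worms. Of them, 10 overlapped a region listed for *set1*(RNAi) in X1 cells and 1 a region listed in Xins cells. H3K4me3 was lower after *set1*(RNAi) at all 11, as at nearly all regions of these tables, so a region outside the separated *set1* regions of whole worms could still be listed as lower after *set1*(RNAi) in sorted cells. All 10 in X1 cells were called by limma, at adjusted p-values up to 5.8e-06, with log2 changes of -1.15 to -0.74 and a median of -0.88, close to that of the whole table (-0.89). The table's background was 99.8% called lower of 554 regions. The *set1*(RNAi) libraries ranged from 31.6 to 98.2 and from 28.2 to 92.1 at the 10 regions, against 60.1 to 154.6 and 62.6 to 165.1 in the *unc*(RNAi) libraries. Of the 10, 7 had no listed *set1* region in whole worms, and at the other 3 the whole-worm groups overlapped, with log2 changes of -0.05, 0.03 and 0.05.

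The smallest adjusted p was at v31.009346, positions 3701 to 4900 (SMED30027522), with 98.2 and 92.1 in X1 cells after *set1*(RNAi), against 154.6 and 165.1 in the control (-0.74 ± 0.12, limma adjusted p = 1.1e-09). At v31.001082, positions 100201 to 101500 (SMED30016288 and SMED30027885), the values were 53.1 and 44.6 after *set1*(RNAi), against 111.0 and 94.0 in the control (-1.06 ± 0.17, adjusted p = 2.4e-09). SMED30005961 (v31.007401, positions 12501 to 14000) held 41.6 and 33.2 after *set1*(RNAi), against 79.5 and 87.6 in the control (-1.15 ± 0.19, adjusted p = 7.6e-09). This gene start was listed and called as lower after both knockdowns in X1 cells. Median scaling removed both calls, at log2 changes of -0.24 after *mll*(RNAi) and -0.27 after *set1*(RNAi). At v31.000542, positions 17501 to 18600 (SMED30026014 and SMED30004370), the values were 67.1 and 66.0 after *set1*(RNAi), against 125.7 and 115.5 in the control (-0.85 ± 0.14, adjusted p = 1.4e-08). One more locus was listed after both knockdowns in X1 cells, the pair of starts SMED30008939 and SMED30010841 on v31.046932. It held 34.1 and 40.2 after *mll*(RNAi), against 75.6 and 92.3 in its control, and 31.6 and 28.2 after *set1*(RNAi), against 60.1 and 62.6 in its control. Both differences were called by limma (-1.15 ± 0.17, adjusted p = 6.1e-05 after *mll*(RNAi), and -1.01 ± 0.21, adjusted p = 1.6e-06 after *set1*(RNAi)). In these 2 comparisons 92.2% and 99.8% of all listed regions were called lower. Both falls were close to the shifts that median scaling removed, -1.13 for *mll*(RNAi) and -0.89 for *set1*(RNAi), so they hardly set this locus apart from the other listed regions.

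In Xins cells the region was v31.001809, positions 28701 to 29900 (SMED30006811), which overlapped in part one of the regions of highest control level (positions 29501 to 31700). It held 50.2 and 50.4 after *set1*(RNAi), against 79.3 and 91.0 in the control (-0.74 ± 0.20, limma adjusted p = 3.8e-04, in a table of 106 regions all called lower, 100.0%). Without the first-listed or the second-listed control library its adjusted p was 0.059 or 0.10. Median scaling removed a shift of -0.89 on the log2 scale in X1 cells and of -0.88 in Xins cells, after which none of the 11 regions was called by limma, and none had an unadjusted p under 0.05. Of the 10 in X1 cells 5 were then lower and 5 higher, and the table gave 21 lower and 10 higher calls, against 553 and 1 for the values as deposited.

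In untreated cells the comparison of X1 with Xins asked where the regions carry the mark without RNAi. The table was truncated, and 105 of the 271 regions lay on scaffolds of the portion that was read. Of these, 24 overlapped a listed region (22.9%), against 30.0% of all regions of the *mll* whole-worm table on the same scaffolds. H3K4me3 was higher in X1 cells at 18 of the 24 and lower at 6, that is, 75.0% higher, against 62.6% of all 1378 listed regions. The groups did not overlap at any of the 24, but over the table both X1 values lay above both Xins values in 62.6% and below them in 37.0%, so this count says nothing particular about the 24. By limma 16 were called higher in X1 cells, against 56.2% of the table, and 5 were called lower, against 32.1%. At the 18 regions the X1 libraries ranged from 26.0 to 157.8 (median 57.1) and from 23.3 to 140.7 (median 60.9), against 0 to 54.7 (median 22.5) and 6.87 to 54.9 (median 24.0) in the Xins libraries. At the 6 regions the X1 libraries ranged from 25.7 to 49.6 and from 24.5 to 48.2, against 50.1 to 95.7 and 41.2 to 88.3 in the Xins libraries. The whole-worm fall after *mll*(RNAi) was about the same on either side, with a median of -0.41 at the 18 regions and -0.40 at the 6. Which group is X1 was read from the name of the table, which puts X1 first, and the first-listed Xins library was shallow, with 0 to 12 reads at the 18 regions and 11 to 21 at the 6.

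The largest called difference was at v31.001082, positions 99701 to 102200 (SMED30016288 and SMED30027885), with 84.5 and 88.1 in X1 cells, against 4.43 and 26.6 in Xins cells (log2 difference 2.83 ± 0.82, limma adjusted p = 0.030). Its first Xins value was 1 read, so the size of this difference is poorly fixed. At v31.000564, positions 72701 to 75400, where SMED30014270, SMED30034043 and SMED30007820 are listed, the values were 157.8 and 140.7 in X1 cells, against 22.8 and 38.6 in Xins cells (2.29 ± 0.29, adjusted p = 0.0060). At v31.000013, positions 194201 to 197000 (SMED30009894 and SMED30011372), they were 116.5 and 123.3 in X1 cells, against 36.5 and 21.4 in Xins cells (2.06 ± 0.29, adjusted p = 0.0069). The X1 libraries were alike at each of these, while the Xins libraries differed from each other. At v31.000226, positions 175801 to 176900 (SMED30011117 and SMED30019339), the values were 34.0 and 38.3 in X1 cells, against 4.56 and 13.7 in Xins cells (2.03 ± 0.56, limma adjusted p = 0.026). The first Xins value was 1 read here too, and leaving out 1 library gave log2 differences of 1.33 to 2.74. At v31.000765, positions 21801 to 22800 (SMED30031378), 1 Xins library was at 0 reads and the other at 15, against 28 and 97 reads in the X1 libraries. This region was not called (adjusted p = 0.093) and is mentioned because of its 0.

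Lower in X1 cells was v31.000102, positions 11101 to 13300 (SMED30003475), with 25.7 and 24.5 in X1 cells, against 63.8 and 75.5 in Xins cells (-1.43 ± 0.18, limma adjusted p = 0.0060). At v31.000335, positions 7301 to 9800 (SMED30025835), the values were 31.2 and 34.4 in X1 cells, against 72.9 and 88.3 in Xins cells (-1.27 ± 0.18, adjusted p = 0.0069). SMED30004555 held 39.5 and 43.8 in X1 cells, against 77.5 and 81.5 in Xins cells (-0.92 ± 0.14, adjusted p = 0.0085). This was one of the gene starts with the largest fall after *mll*(RNAi) in X1 cells, and the untreated X1 libraries held less of the mark there than the Xins libraries. At v31.000285, positions 59201 to 61100, where SMED30020271, SMED30004433 and SMED30034218 are listed, the values were 49.6 and 48.2 in X1 cells, against 95.7 and 80.6 in Xins cells (-0.83 ± 0.15, adjusted p = 0.011). This region too was listed after *mll*(RNAi) in X1 cells, with 48.8 and 60.5, against 103.7 and 107.3 in the control (-0.94 ± 0.14, limma adjusted p = 7.7e-05). That fall was smaller than the shift of -1.13 that median scaling removed there, and 92.2% of the regions listed in that comparison were called lower. The remaining region listed in both tables, SMED30018035, was higher in X1 cells at positions 12301 to 13300, 462 bases from the gene start. It held 27.9 and 23.3 in X1 cells, against 4.43 and 6.87 in Xins cells (2.02 ± 0.36, limma adjusted p = 0.010). These Xins values rested on 1 and 8 reads. The region lowered there after *mll*(RNAi) in X1 cells, positions 11301 to 13100, covered the start itself. Of the 3 regions listed both for *mll*(RNAi) in X1 cells and for X1 against Xins, 2 were thus lower in untreated X1 cells. The other was higher, at a flank of its gene start.

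**Figure D5:**
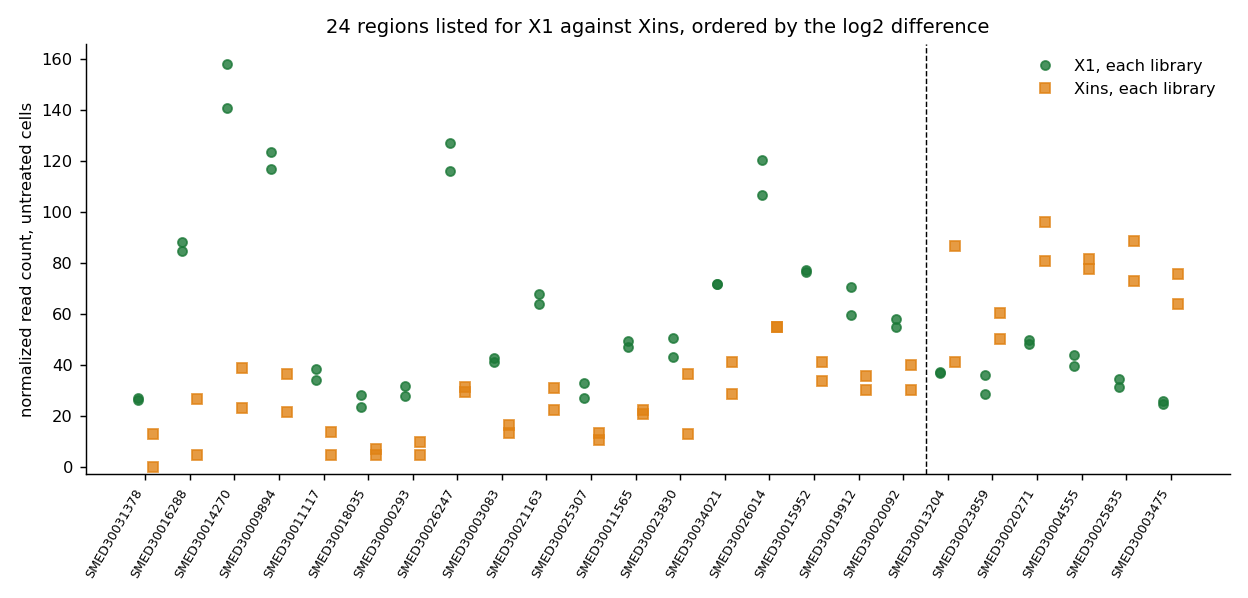
Normalized read counts of each untreated library at the 24 regions listed for X1 against Xins, named by their first gene identifier and ordered by the log2 difference, with X1 as green circles on the left and Xins as orange squares on the right of each pair. At the 18 regions left of the dashed line X1 was higher and at the 6 right of it lower, and no X1 value overlapped the Xins values of its own region.

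Leaving out either X1 library removed every limma call at the 24 regions. Without the first-listed X1 library 7 were higher and 4 lower at an unadjusted p under 0.05, and without the second-listed one 7 and 3, all in the same direction as before. Median scaling removed a shift of 0.67 on the log2 scale, after which 4 were called higher and 6 lower, and the table held 281 higher and 508 lower calls, against 774 and 443 for the values as deposited. Among the regions named, the calls lost to that scaling were those of SMED30016288 with SMED30027885 (2.21) and SMED30011117 with SMED30019339 (1.42).

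In all, 203 of the 271 regions overlapped no listed region of sorted cells. Of the 68 that did, 40 were listed for *mll*(RNAi) in X1 cells, 10 for *set1*(RNAi) in X1 cells and 24 for X1 against Xins, and 1 each in the *mll* and *set1* tables of Xins cells. Both knockdown tables of X1 cells shared 2 of the regions, and 3 regions were listed for *set1*(RNAi) in X1 cells and for X1 against Xins. At those 3 (SMED30026014 with SMED30004370, SMED30026247, and SMED30016288 with SMED30027885) the mark was higher in untreated X1 than in Xins cells. Their log2 differences were 1.03, 1.98 and 2.83, all called, in a comparison where 56.2% of listed regions were called higher. The value of 2.83 rested on 1 read in 1 Xins library, and its call was lost under median scaling. The dependence on each X1 library given above holds for these calls too.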

How the data were processed

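H3K4me3 ChIP-seq had 58 samples in all, 29 of them H3K4me3 libraries and 29 input libraries. The authors deposited 7 tables of comparisons made with diffReps, each of 2 libraries against 2, with a normalized read count of each library, the mean signal of each group and its enrichment over input as a ratio. The submitters' processing notes name CASAVA 1.8.2, Bowtie and MACS2. For diffReps the version and thresholds, and for the scaffolds the build, are not given in the sources used here. Columns of the authors' own comparisons (log2 fold changes, p-values and window statistics) were not used. The protocol mentions *Drosophila* cells, and whether these served for scaling is likewise unstated.

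Regions were counted once per scaffold, start and end. Per the files, 2 values share a cell with no replicate number, and their scaling changed between runs of scaffolds, so no count model was fitted. A linear model of log2(normalized count + 1) was computed per table in limma 3.58.1 under R 4.3.3 (empirical Bayes, with a trend in tables of 50 regions or more, two-sided) and adjusted with the Benjamini-Hochberg method over all regions of a table at 0.05. The fit was tested on simulated data. There the changed regions rose or fell in about equal number and no region was selected. The deposited regions were already listed as differing, a setting that the simulation did not cover. Whole-worm values chose the regions and were not tested. Alternatives were other limits, overlaps, pseudocounts, a minimum mean of 20, no trend, median scaling and leaving out each library. The table of untreated cells was truncated at scaffold number 1565 of its second run. Python 3.11.15 with pandas 2.3.3 served for overlaps.

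The regions and lists were chosen with earlier results of these data known. The text names the 8 largest falls, the 8 and the 4 smallest adjusted p-values in the *mll* and *set1* tables of X1 cells, all regions listed in Xins cells after RNAi, the 4 largest called differences in each direction between X1 and Xins, the 3 highest control levels, the longest and the shortest region, the 3 regions on each side of the limit, and scaffolds with the most regions. Other regions are named where said.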

Additional observations from a re-analysis of the deposited data

How the results depend on the processing

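No paired analysis was possible because the 2 values of a group share a cell of the table without replicate numbers, and a fit with a replicate block was not run. The number of regions was 415 at a limit of -0.1 and 87 at -0.5, against 271 at -0.2. Leaving out 1 whole-worm library gave 272 to 276 regions, of which 254 to 260 were among the 271. Counting starts within 1000 bases put 95.9% of the regions at a gene start, against 91.5% within 200 bases. Median scaling, which removes the common fall of tables that hold almost only lowered regions, left 9 of 40 calls for *mll* in X1 cells and 0 for *mll* in Xins, *set1* in X1 and *set1* in Xins cells by limma (0 in each at an unadjusted p under 0.05), and 4 of 16 calls higher in X1 than in Xins cells. Under it the log2 change turned to 0.15 at the *mll* Xins region of SMED30010028, 0.14 at SMED30027522 and 0.037 at SMED30026014 (*set1*, X1 cells), and 0.12 at SMED30006811 (*set1*, Xins cells). An overlap of 50% of the shorter region left 0 *set1* Xins regions. Leaving out 1 library gave 0 to 1 calls for *mll* and for *set1* in Xins cells by limma (where the call was lost, 0 of 2 such fits for *mll* and 1 of 2 for *set1* kept an unadjusted p under 0.05), and 0 to 18 calls higher and 0 to 5 lower in X1 than in Xins cells. The calls were lost without a control library in the RNAi tables and without an X1 library in the untreated table, and the cause was not tested. It gave 40 to 40 calls for *mll* and 10 to 10 for *set1* in X1 cells. Pseudocounts of 0.5 or 5, no trend and a minimum mean kept every count of calls at the 271 regions within 1.5 times its value. Over the whole tables, no trend gave 6 higher calls for *mll* in X1 cells, against 20, and the minimum mean gave 257 lower calls in X1 than in Xins cells, against 443. Without a control library, the whole tables held 0 calls for *mll* in Xins cells (8 and 9 at an unadjusted p under 0.05), against 12, and 37 or 0 for *set1* in Xins cells (79 and 68 at an unadjusted p under 0.05), against 106. Without an X1 library, the untreated table held 12 or 28 higher and 2 or 60 lower calls, against 774 and 443. In the untreated comparison 1 read was worth 4.43 to 4.56 units in the first-listed Xins library, and regions not listed could not be read in either direction.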
